A study of Mus musculus with 5 samples.

Results

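Mature CD4 T cells were described in lung tumors of an autochthonous SCLC mouse model by scRNA-seq. Cells were selected as barcodes with more than 150 detected genes, at most 20% mitochondrial UMIs, at least 1 UMI of the CD3 genes Cd3d, Cd3e and Cd3g together, at least 1 UMI of Cd4, and no UMI of Cd8a, Cd8b1, Rag2, Dntt, Csf1r or Lyz2. The rule gave 330 cells in the library of tumors treated with mubritinib, which inhibits the kinase ERBB2, and 79 cells in the library treated with mubritinib and anti-PD-1, which blocks an inhibitory receptor on T cells. Together these were 409 of the 86735 barcodes in the 5 libraries of the series. The libraries are called ERBB2i and combination below. All mice carried floxed Rb1 and Trp53 (Rb1 fl/fl x Trp53 fl/fl), which adenoviral Cre given into the trachea deletes in the lung. Therapy began once lesions could be measured by µCT. Each agent was dosed at 10 mg/kg, and treatment was repeated every 3 days. The labels give neither the number nor the age of the animals behind a library, and anti-PD-1 alone, vehicle and a library named combination in response were not part of the selection. With 1 library per group there is no replicate, so that no test between conditions was possible. The 95% intervals given in parentheses cover counting error only, and cells are not replicates.

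CD4 T cells recognize peptides on MHC class II and steer other immune cells through cytokines and contact signals such as CD40 ligand. Naive and central memory cells keep the transcription factors LEF1 and TCF1 (Tcf7), the homing receptor CCR7 and the interleukin-7 receptor (Il7r), which sustains their survival. Activated cells can become helper cells of the Th1, Th2, Th17 or follicular type, can gain cytotoxic genes, or can be regulatory T cells, which carry the transcription factor FOXP3 and restrain other T cells. In SCLC, a neuroendocrine lung carcinoma, T cells are usually scarce within the tumor.

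CD4 T cells made up 1.26% (1.12 to 1.4%) of the 26294 barcodes that passed in ERBB2i and 0.29% (0.23 to 0.362%) of the 27203 in combination. Of all barcodes with CD3 they formed 8.88% of 3715 in ERBB2i and 4.68% of 1687 in combination. Against CD8 T barcodes, chosen by the same rule but with Cd8a or Cd8b1 and without Cd4 (1053 and 444 barcodes), CD4 T cells were 23.9% (21.6 to 26.2%) of both classes in ERBB2i and 15.1% (12.1 to 18.5%) in combination. Their share was thus lower in combination on each of these denominators. Fewer cells of a type and less captured RNA per cell cannot be told apart in such shares. The requirement for no Lyz2, a macrophage gene, acted unequally: it removed 15 barcodes in ERBB2i and 33 in combination, where 30.3% of tumor barcodes held a Lyz2 UMI against 4.46% in ERBB2i. Without Csf1r and Lyz2 in the rule, ERBB2i gave 349 cells, 1.33% of its barcodes, and combination 114 cells, 0.419%.

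Co-receptor capture was sparse. Exactly 1 Cd4 UMI was found in 232 of the 330 cells in ERBB2i and in 63 of the 79 in combination, and exactly 1 CD3 UMI in 64 and 22 cells. Just outside the rule lay 2241 barcodes in ERBB2i and 956 in combination with CD3 and no UMI of Cd4, Cd8a or Cd8b1, a class with median depths of 1400 and 1431.5 UMIs that can hold CD4 T cells whose Cd4 was not captured. Other cells rarely held Cd4: 0.317% of tumor barcodes and 0.39% of B cell barcodes in ERBB2i, and 0.134% and 0.257% in combination. The cells were shallow, with a median of 1327.5 UMIs in ERBB2i and 1219 in combination and 641699 and 152034 UMIs in all, against library totals of 69202421 and 88497833 UMIs. Levels are given below as CPM, the UMIs of a gene per 1000000 UMIs of the summed cells, and differences as log2 ratios of CPM. A gene was counted as higher or lower when it differed at least 2-fold with at least 30 UMIs over the summed classes.

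The markers of the label were then examined. Il7r was held by 54.8% of CD4 T cells in ERBB2i and 51.9% in combination, against 1.78% and 0.995% of tumor barcodes, and Lef1 by 34.8% and 34.2%, against 0.78% and 0.287%. The genes that stood highest over tumor barcodes in both libraries, with at least 100 UMIs in each, were the T cell receptor constant genes Trbc1, Trbc2 and Trac, the receptor chain Cd247, the Gimap GTPases Gimap3 and Gimap6, the GTPase gene Rac2 and its pathway gene Arhgdib, the membrane protein Ms4a4b and the cytokine Ltb. Trac, for example, reached 809 (741 to 881) CPM in ERBB2i and 789 (654 to 944) CPM in combination, against 4.85 and 1.9 CPM in tumor barcodes. Rag1 and Ptcra, which mark immature thymocytes, had no UMI in either library, beside Rag2 and Dntt, which the rule had barred. Of the 12 listed thymocyte markers 8 were detected in ERBB2i and 6 in combination, summing to 732 and 1177 CPM. The same list summed to 755 and 1171 CPM in CD8 T barcodes and to 1162 and 2083 CPM in tumor barcodes. Among them, Themis was held by 19.7% and 7.59% of CD4 T cells and Cd24a by 20% and 48.1%. The 18 pathway lists and 12 lists of other cells used below were chosen with earlier results of these data known. On the mm10 assembly (RefSeq annotation of GRCm38.p6), Cd4 lies at chr6:124864693-124888247, Il7r at chr15:9506159-9529941, Lef1 at chr3:131110297-131224357 and Foxp3 at chrX:7579676-7595243. Of the markers of the label Il7r and Lef1 were thus present, Cd4 and Cd3e were used by the rule, and Foxp3 was rare.

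Transcripts of other cells were common in these barcodes. The 12 genes of a neuroendocrine tumor list summed to 2560.4 CPM in CD4 T cells of ERBB2i and 3486 CPM in combination, which is 48.7% and 55.9% of the level of the whole library. CD8 T barcodes (46.6% and 48.4%) and B cell barcodes (51.4% and 64.7%) held the same list at similar levels. Its part in the ratios below was not tested, and values without candidate doublets or with library RNA subtracted are given where they differ. The B cell list of 10 genes summed to 385 and 342 CPM, against 26669 and 16895 CPM in B cell barcodes. The NK cell list summed to 238 and 65.8 CPM, against 495 and 1337 CPM in CD8 T barcodes, with 1 and 0 UMIs of Ncr1 and 3 and 0 of Klrb1c. Of gamma-delta T cell genes, Trdc was found in 3 and Trgc1 in 10 of the 330 cells in ERBB2i and in none of the 79 in combination, where a count of 0 allows up to 19.7 CPM. Macrophage and monocyte genes summed to 496 and 513 CPM, with Csf1r and Lyz2 at 0 by the rule. Tumor barcodes summed to 603 and 617 CPM with these 2 genes included, so that the sums of the classes cannot be set against each other. A B cell or macrophage UMI, or at least 2 UMIs of the tumor list, was held by 157 and 45 of the CD4 T cells, termed candidate doublets below, although transcripts taken up from lysed tumor cells cannot be told apart from doublets by such counts. Levels of tumor genes such as Stmn1 and Mki67 in CD4 T cells are therefore not described as their own: Mki67 was held by 36.1% and 26.6% of CD4 T cells and by 29.9% and 29.2% of B cell barcodes.

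**Figure D1:**
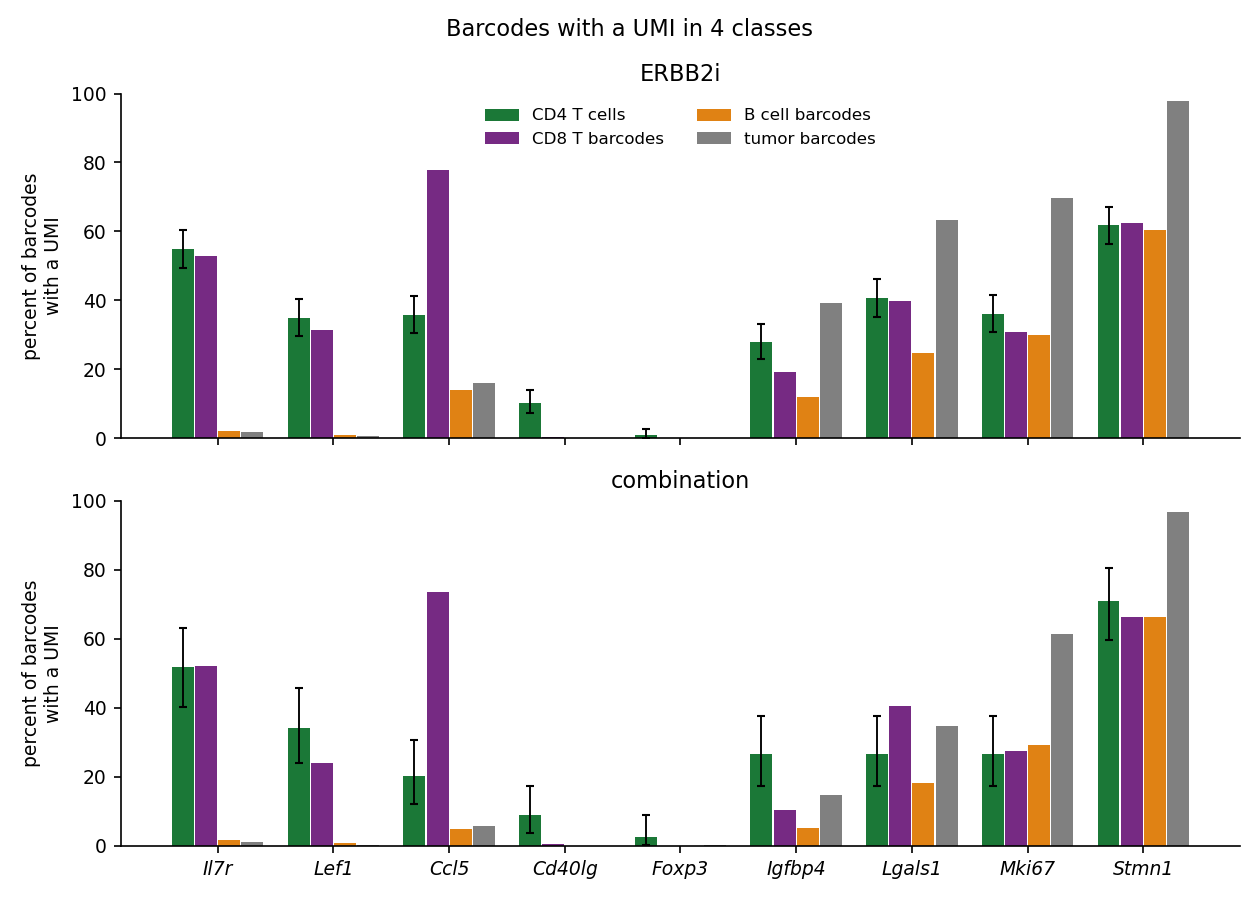
Percent of barcodes with at least 1 UMI of each gene in CD4 T cells, CD8 T barcodes, B cell barcodes and tumor barcodes of ERBB2i (top) and combination (bottom). Bars start at 0 and black lines are exact 95% binomial intervals for CD4 T cells. Il7r and Lef1 were held by the T cell classes and hardly by B cell or tumor barcodes, whereas Mki67 and Stmn1 were held by CD4 T cells about as often as by B cell barcodes and most often by tumor barcodes.

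Naive and central memory genes were detected broadly. All 19 genes of the list were found in both libraries, summing to 7159 CPM in ERBB2i and 6071 CPM in combination, against 7568 and 7099 in CD8 T barcodes. Il7r reached 888 (817 to 964) CPM in ERBB2i and 605 (488 to 742) CPM in combination. Lef1, a transcription factor of naive T cells, reached 358 (314 to 408) CPM in ERBB2i and 335 (249.8 to 441) CPM in combination, and its partner Tcf7 382 (335 to 433) CPM in ERBB2i and 414 (318 to 530.2) CPM in combination. Klf2, which maintains the expression of trafficking receptors in resting T cells, stood at 1106 (1027 to 1191) CPM in ERBB2i and 921 (775 to 1087) CPM in combination. Ccr7, which guides T cells into lymph nodes, stood at 148 (119.8 to 181) CPM in ERBB2i and 217 (149 to 305) CPM in combination. At least 1 UMI of Lef1 or Ccr7 was found in 41.5% (36.1 to 47.0%) of cells in ERBB2i and 41.8% (30.8 to 53.4%) in combination, and when each cell was thinned to 500 UMIs the expected shares were 23.1% and 25.5%. Lef1 and Tcf7 were found together in 62 and 14 cells. Satb1, an organizer of chromatin in T cells, was found at 274 CPM in ERBB2i and 184 CPM in combination.

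**Figure D2:**
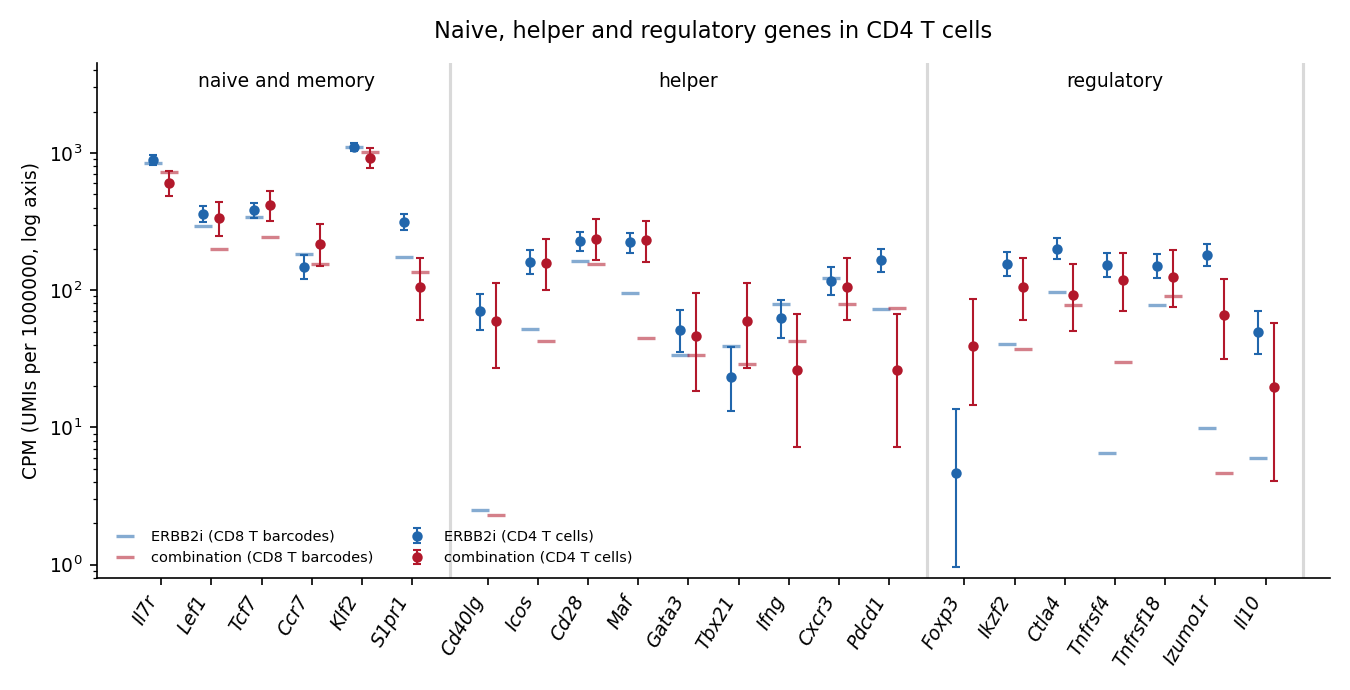
Levels in CPM on a log axis of naive and memory, helper and regulatory genes in CD4 T cells of ERBB2i (blue points) and combination (red points), with exact 95% Poisson intervals. Horizontal dashes give CD8 T barcodes of the same library and are left out where they held no UMI. Naive genes lay at similar levels in both T cell classes, whereas Cd40lg, Tnfrsf4 and Izumo1r lay far above CD8 T barcodes and Pdcd1 differed between the libraries.

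Helper genes were present at low counts. Cd40lg, the ligand through which helper cells activate B cells and dendritic cells, was held by 34 cells in ERBB2i and 7 in combination, at 70.1 (51.2 to 93.8) CPM in ERBB2i and 59.2 (27.1 to 112) CPM in combination. Icos, a costimulatory receptor of activated helper cells, reached 161 (131 to 195) CPM in ERBB2i and 158 (101 to 235) CPM in combination, and Maf, a transcription factor of several helper types, 223 (188 to 263) CPM in ERBB2i and 230.2 (160.4 to 320.2) CPM in combination. Of the Th1 genes, Tbx21, which encodes the defining factor T-bet, had 15 and 9 UMIs, Ifng 40 and 4, and the receptor Cxcr3 75 and 16. Of the Th2 genes, Gata3, a factor that also acts in other T cells, was at 51.4 CPM in ERBB2i and 46.0 CPM in combination, and the cytokines Il4, Il5 and Il13 had no UMI in either library. Of the Th17 genes, Il17a had 3 and 0 UMIs, and Il17f, Il22 and Il23r none. Among follicular helper genes, Il21 had 17 and 1 UMIs, Cxcr5 9 and 4, and Bcl6 20 and 0, and the factor Tox2 stood at 43.6 CPM in ERBB2i and 46.0 CPM in combination. Of 21 cytokine genes, Ltb, which encodes lymphotoxin beta, was the only one with more than 100 UMIs in a library, at 584 (527 to 647) CPM in ERBB2i and 664 (541 to 807) CPM in combination. At this depth an absent UMI does not show that a transcript was absent from a cell.

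Foxp3 was found in 3 of 330 cells in ERBB2i, 1 UMI each, and in 2 of 79 cells in combination, with 5 UMIs in one of them. These shares were 0.909% (0.188 to 2.63%) and 2.53% (0.308 to 8.85%), and at 500 UMIs they were 0.364% and 1.36%. No CD8 T barcode held Foxp3, and in tumor barcodes the shares were 0.0905% and 0.104%. In each library 35 barcodes held Foxp3, of which 15 in ERBB2i and 12 in combination also held CD3. With so few cells, regulatory T cells could not be separated by Foxp3 for a comparison. The high-affinity interleukin-2 receptor chain Il2ra had 3 UMIs in ERBB2i and none in combination, and Il2rg was at 0 in CD4 T, CD8 T, B cell and tumor barcodes of both libraries, so that its count says nothing of these cells.

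Several genes of the regulatory list were found in more cells than Foxp3, and others were as rare or not found. Ctla4, an inhibitory receptor, was held by 23.3% and 12.7% of cells, Ikzf2, which encodes the factor Helios, by 16.1% and 10.1%, and the costimulatory receptors Tnfrsf4 (OX40) and Tnfrsf18 (GITR) by 15.5% and 16.5% and by 20.3% and 19%. Izumo1r (folate receptor 4) was held by 18.2% and 11.4%, and Il10, a suppressive cytokine, by 11 cells in ERBB2i and, like Foxp3, by 2 in combination. Of genes with a strong link to regulatory T cells, Lrrc32 (GARP) had no UMI in either library, the receptor gene Gpr83 1 UMI in ERBB2i and the chemokine receptor gene Ccr8 5, with none of either in combination. Of 6 such genes, Ctla4, Ikzf2, Tnfrsf4, Tnfrsf18, Icos and Izumo1r, chosen after their values were seen, at least 2 were found in 30.3% (25.4 to 35.6%) of CD4 T cells in ERBB2i and 25.3% (16.2 to 36.4%) in combination. In CD8 T barcodes the same held for 5.51% and 5.18%, at median depths of 1322 and 1275.5 UMIs. All 5 cells with Foxp3 held at least 2 of the 6. As background, these genes also rise on activated and follicular helper cells and do not by themselves define a regulatory T cell.

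CD4 T cells were then set against CD8 T barcodes of the same library. Of 6163 genes with enough UMIs in both libraries, leaving out those of the barcode rule, 12 were at least 2-fold higher in CD4 T cells in both (0.195%) and 43 at least 2-fold lower (0.698%). Of the regulatory list 4 of the 12 genes compared (Tnfrsf4, Icos, Ikzf2 and Nrp1) were higher in both libraries and 1 was lower, Gzmb, a granzyme gene that the cytotoxic list also holds (40 UMIs against 250 in CD8 T barcodes in ERBB2i, and 3 against 293 in combination). Of the follicular helper list 1 of 6 was higher (Icos), of the identity list 1 of 17 (Cd5) and of the naive list none of 19, where 1 (Dapl1) was lower, and 9 of 17 cytotoxic genes were lower. Within a single library the shares were larger, with 1.73% higher and 3.1% lower in ERBB2i and 4.03% higher and 6.65% lower in the shallower combination. The median log2 ratio over all genes was 0.02 in ERBB2i and 0.03 in combination, against 1.01 and 0.45 for the regulatory list and -1.0 and -2.89 for the cytotoxic list.

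Some helper genes had large ratios, but the helper lists differed. Of 14 Th1 genes compared 0 were higher in both libraries and 2 were lower. The Th1 median was -0.52 in ERBB2i and -1.23 in combination, and that of the follicular helper list 1.22 and 0.09. As log2 ratios of CD4 T cells over CD8 T barcodes, Cd40lg (chrX:57212143-57224042) stood at 4.81 (3.49 to 6.50) in ERBB2i and 4.68 (2.40 to 7.92) in combination, Izumo1r at 4.18 (3.49 to 4.94) in ERBB2i and 3.83 (2.03 to 5.95) in combination and Tnfrsf4 at 4.56 (3.72 to 5.52) in ERBB2i and 1.97 (1.02 to 2.90) in combination. In combination Cd40lg had 9 UMIs and Izumo1r 10, below the minimum for a call. Zbtb7b, which encodes the CD4 lineage factor ThPOK, had a log2 ratio of 1.54 (0.71 to 2.36) in ERBB2i and 2.00 (0.80 to 3.15) in combination, on 26 and 12 UMIs in CD4 T cells, also below the minimum in combination, and Runx3, the factor of the CD8 lineage, of -0.74 (-1.13 to -0.36) in ERBB2i and -1.26 (-2.42 to -0.28) in combination. Both ratios were past 2-fold for Icos (1.62 and 1.88), Ikzf2 (1.95 and 1.51), Maf (1.22 and 2.35) and Cd5 (1.44 and 1.17), a brake on T cell receptor signaling. Tnfsf8, the ligand of CD30, stood at 1.99 and 0.98, Ctla4 at 1.04 and 0.25 and Tnfrsf18 at 0.95 and 0.47, past 2-fold at most in ERBB2i. By the size of the difference there were further Tbc1d4, a regulator of glucose transporter traffic (2.79 and 1.90), Trib2, a pseudokinase (1.53 and 2.35), Trat1, an adaptor of the T cell receptor (1.38 and 2.02), Tmem64 (1.74 and 1.57) and Eea1, an endosomal tether (1.59 and 1.31), although Eea1, Tmem64 and Tbc1d4 were also found in tumor barcodes at 169.8, 45.9 and 24.4 CPM in ERBB2i.

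Among the 43 lower genes were receptors and granule genes of cytotoxic T cells. Klrd1, which encodes the NK receptor CD94, was at -2.88 (-3.60 to -2.24) in ERBB2i and -5.45 (-10.76 to -2.96) in combination, where it had 1 UMI. Klrk1, which encodes the NK receptor NKG2D, was at -3.14 (-4.37 to -2.14) in ERBB2i and -3.53 (-6.59 to -1.65) in combination. Ly6c2, a surface protein of effector and memory CD8 T cells, was at -3.61 and -5.00, Samd3 at -2.90 and -2.45 and Ifngas1, a noncoding RNA beside Ifng, at -2.40 and -2.40. Plac8, Klrc1 and Ccl1 had 3, 6 and 5 UMIs in ERBB2i and none in combination, where their log2 ratios were at most -3.64, -2.45 and -2.32, taking the floor of 3 counts. Nkg7, a granule protein, was at -1.30 and -2.87, Ctsw at -1.99 and -2.89 and the chemokine Ccl5 at -1.08 and -3.05. Dapl1, of the naive list, was also lower (-1.28 and -1.67), whereas Lef1 (0.28 and 0.75) and Tcf7 (0.15 and 0.78) were not. Igfbp4, a binding protein of insulin-like growth factors listed among naive genes, differed by 0.69 and 1.99. Not all genes of the cytotoxic list were lower in CD4 T cells. S100a4 stood at 0.87 in ERBB2i and 1.18 in combination. Ccl3 stood at 1.91 in ERBB2i and at 0.003 in combination, on 3 UMIs there, and Ccl4 at 0.71 and -3.99.

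**Figure D3:**
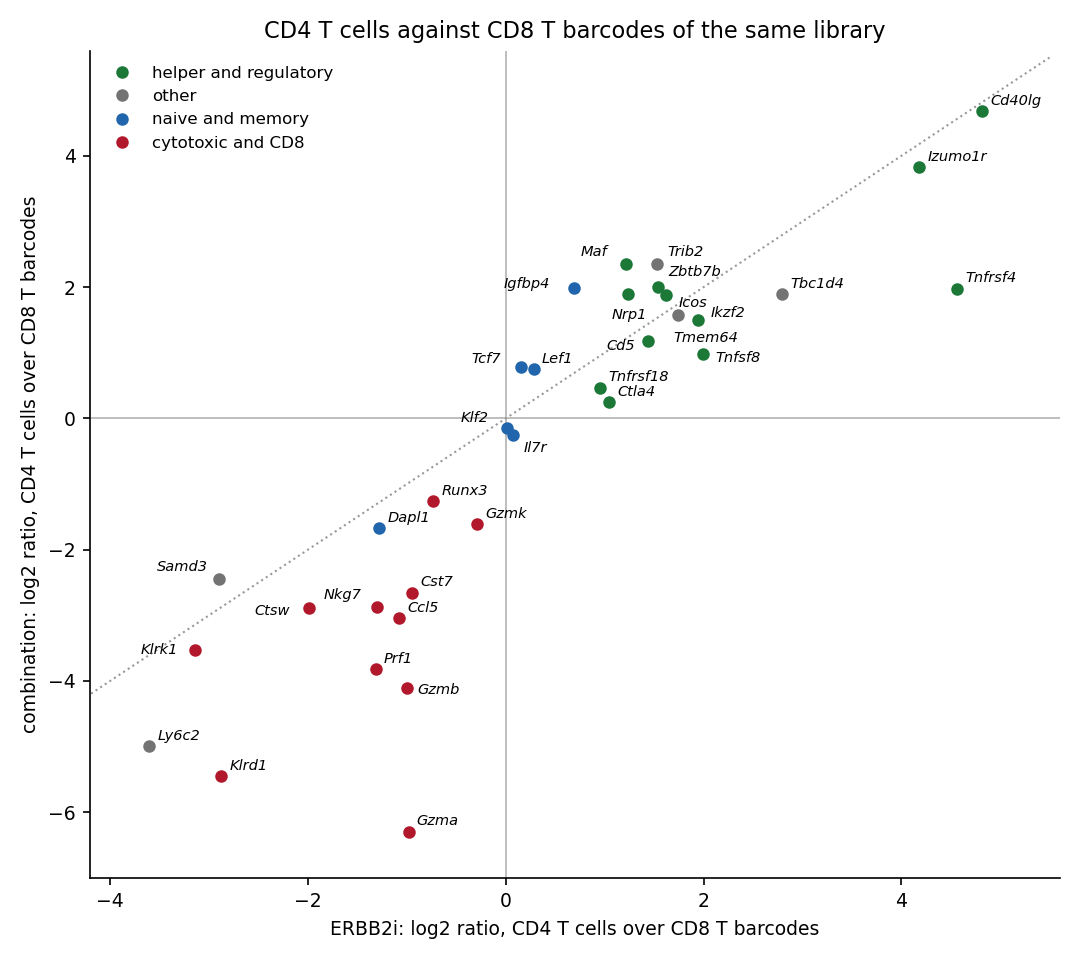
Log2 ratio of CPM in CD4 T cells over CD8 T barcodes, in ERBB2i on the horizontal axis and in combination on the vertical axis, with the dotted line at equal ratios. Each point is a gene, and colors mark helper and regulatory, naive and memory, cytotoxic and CD8, and other genes. The helper and regulatory genes drawn lie above 0 in both libraries, Klf2 and Il7r near 0, and the cytotoxic and CD8 genes drawn below 0 and below the dotted line. S100a4 of the cytotoxic list, which is not drawn, stood above 0 in both libraries, and Ccl3 and Ccl4, also not drawn, above 0 in ERBB2i.

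Cytotoxic and effector genes separated the libraries. In CD4 T cells of ERBB2i all 19 genes of the list were detected, with a sum of 9003 CPM, and in combination 15, with 1967 CPM, while CD8 T barcodes held 17695 and 12712 CPM. Over all 5668 genes compared in CD4 T cells, 4.25% were at least 2-fold higher in combination and 10.5% lower, and the median was -0.04. Of the 14 genes of the list with enough UMIs, 11 were at least 2-fold lower in combination and 1 higher, with a median log2 ratio of -1.77, against a median of 0.12 over 19 genes in CD8 T barcodes. A further 939 genes lay at least 2-fold over tumor barcodes in the library where the gene was higher. Of these 3.19% were higher in combination and 13.5% lower. Genes entered through the library where they were high, so that these shares depend on the filter and give no independent background. In CD8 T barcodes, 3.05% of 9925 genes were higher and 7.66% lower.

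Ccl5 (chr11:83525778-83530518), a chemokine of effector and memory T cells, carried most of this difference. It was found in 118 of 330 cells in ERBB2i, with 3728 UMIs, and in 16 of 79 in combination, with 115 UMIs. Its level was 5809.6 (5625 to 5999) CPM in ERBB2i and 756 (624 to 908) CPM in combination, a log2 ratio of -2.94 (-3.22 to -2.67), and the ratio was -0.98 (-1.02 to -0.94) in CD8 T barcodes and -1.80 in tumor barcodes. Thinned to 500 UMIs, 27.7% and 11.7% of CD4 T cells would hold Ccl5, against 70.2% and 64.0% of CD8 T barcodes. Gzmk, a granzyme of memory-like effector cells, was at 326 (283 to 373) CPM in ERBB2i and 52.6 (22.7 to 104) CPM in combination, a ratio of -2.63 (-3.86 to -1.62) against -1.31 in CD8 T barcodes. Nkg7 was at 910.1 (838 to 987) CPM in ERBB2i and 269.7 (194 to 366) CPM in combination with a ratio of -1.75 (-2.25 to -1.30) against -0.18 in CD8 T barcodes. S100a4, a calcium-binding protein of memory and effector cells, was the one gene of the list that was higher, at 101 (78.2 to 129) CPM in ERBB2i and 263 (188 to 358) CPM in combination and a ratio of 1.38 (0.77 to 1.97), and it was also higher in CD8 T barcodes (1.07).

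Single cells held large parts of several of these counts. Of the 438 Ccl4 UMIs in ERBB2i 138 came from 1 cell, of the 138 Ccl3 UMIs 56, of the 58 Xcl1 UMIs 50 and of the 50 Gzma UMIs 29. Combination held 2 UMIs of Ccl4, for a ratio of -5.70 (-8.75 to -3.84), 3 of Ccl3 (-3.45, -5.74 to -1.87), 2 of Gzma (-2.57, -5.65 to -0.64) and none of Xcl1 (a log2 ratio of -2.20 at the floor of 3 counts). Without the 1 cell that held 50 Xcl1 UMIs, the level in ERBB2i lay below the 19.7 CPM of the floor in combination, so that no ratio remained. Gzmb, with 40 and 3 UMIs (-1.66, -4.0 to -0.01), stood at 0.06 without candidate doublets, Ccl3 at -1.28 and Nkg7 at -2.92. Without the cell with most UMIs of the gene in each library, the ratios were -6.13 for Ccl4, -4.28 for Ccl3, -2.31 for Gzma and -3.28 for Ccl5, whose richest cells held 269 of 3728 and 31 of 115 UMIs. The cytotoxic list was also summed by the number of Cd4 UMIs of a cell. In ERBB2i it summed to 8266 CPM in cells with 1 Cd4 UMI and 10638 CPM in the 98 cells with more, and in combination to 2116 and, in 16 cells, 1417 CPM. Without candidate doublets it was 15935 CPM in 173 cells and 2826 CPM in 34. Whether CD8 T cells that lacked a captured co-receptor UMI had a part in these sums was not tested.

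**Figure D4:**
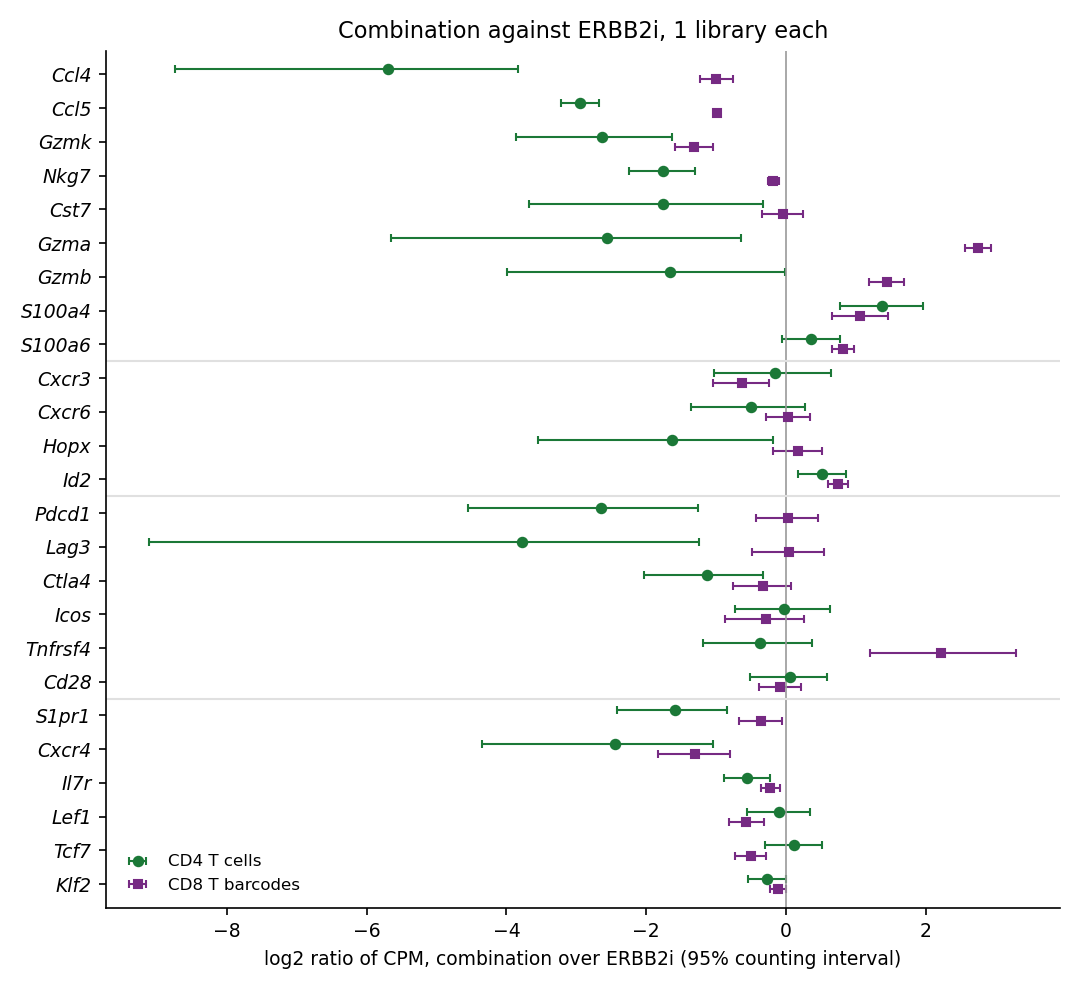
Log2 ratio of CPM in combination over ERBB2i for cytotoxic and effector genes, Th1 genes, checkpoint and costimulatory receptors, and migration and naive genes (from top to bottom, separated by gray lines), in CD4 T cells (green circles) and CD8 T barcodes (purple squares), with exact 95% counting intervals. In CD4 T cells the granzymes, Ccl4, Ccl5, Nkg7, Pdcd1 and Lag3 lie below 0, while Lef1, Tcf7, Icos and Cd28 lie near 0 and S100a4 above.

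Of 12 Th1 genes compared, 3 of which (Ccl5, Eomes and Fasl) are also on the cytotoxic list, 7 were at least 2-fold lower in combination and none higher, with a median of -1.17 against -0.39 in CD8 T barcodes. Among them Hopx, a cofactor of effector T cells, had a ratio of -1.62 (-3.55 to -0.18), which was -0.56 without candidate doublets, and Ifng of -1.24 (-3.19 to 0.22), an interval that includes 0. Tbx21 was not lower (1.34, -0.03 to 2.63, on 15 and 9 UMIs), nor was Cxcr3 (-0.15, -1.03 to 0.64). Id2, a repressor needed by effector T cells, stood at 0.52 (0.17 to 0.86), but tumor barcodes of combination held it at 613 CPM, close to the 625 CPM of CD4 T cells. With library RNA subtracted from each sum, the median of the Th1 genes was -0.18 and Id2 stood at -0.04.

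Checkpoint receptors differed by gene. Pdcd1, which encodes PD-1, the target of the antibody, was found in 54 of 330 cells in ERBB2i, with 106 UMIs, and in 4 of 79 in combination, with 4 UMIs. Its level was 165 (135 to 199.8) CPM in ERBB2i and 26.3 (7.17 to 67.4) CPM in combination, a ratio of -2.65 (-4.55 to -1.25), whereas the ratio was 0.03 (-0.42 to 0.46) in CD8 T barcodes. The gene lies at chr1:94038305-94052553. Lag3, an inhibitory receptor for MHC class II, had 58 UMIs in ERBB2i and 1 in combination, a ratio of -3.78 (-9.11 to -1.25), against 0.04 in CD8 T barcodes. Ctla4 had a ratio of -1.13 (-2.04 to -0.33). Of the 13 receptors compared 4 were at least 2-fold lower and none higher, and the costimulatory receptors Icos (-0.02, -0.73 to 0.63), Cd28 (0.06, -0.51 to 0.59) and Tnfrsf18 (-0.27, -1.07 to 0.45) had intervals on both sides of 0. Of 8 follicular helper genes 3 were lower, Pdcd1, Tnfsf8 (-1.06, -1.91 to -0.31) and Slamf6 (-1.16, -2.07 to -0.36), the latter a receptor of the SLAM family. Of the regulatory list 4 of 14 were lower and none higher, among them Izumo1r at -1.46 (-2.56 to -0.53), while Tnfrsf4 (-0.37, -1.18 to 0.37) and Ikzf2 (-0.57, -1.43 to 0.20) did not pass 2-fold. Without candidate doublets, Pdcd1 stood at -1.66, Lag3 at -2.03, Ctla4 at -0.31, Izumo1r at -0.13, Tnfsf8 at -0.19 and Slamf6 at -0.44, so that the last 4 no longer passed 2-fold. That subset held 173 cells in ERBB2i and 34 in combination, at lower median depths of 1035 and 912 UMIs. Pdcd1 had 56 and 3 UMIs in it and Izumo1r 58 and 9, so that these ratios rest on few counts. Foxp3 had 3 and 6 UMIs, a ratio of 3.08 (0.85 to 5.71) that rests on 5 UMIs of 1 cell.

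Of the genes of migration 4 of 12 compared were lower in combination, with a median of -0.79 against -0.36 in CD8 T barcodes. S1pr1, the receptor by which T cells leave tissue and lymph nodes, had 202 UMIs in ERBB2i and 16 in combination (-1.58, -2.42 to -0.85), against -0.36 in CD8 T barcodes and -0.99 without candidate doublets. Cxcr4, the receptor of CXCL12, had 92 and 4 UMIs (-2.45, -4.35 to -1.04), against -1.30 in CD8 T barcodes. Selplg, which encodes the selectin ligand PSGL-1, stood at -1.03 (-1.69 to -0.43) and the integrin gene Itga4 at -0.94 (-1.50 to -0.43), whereas Itgb1 (0.20, -0.22 to 0.61) and Itgb7 (0.32, -0.25 to 0.86) had intervals that include 0. Of the naive list 2 of 19 were lower, S1pr1 and Gpr183 (-1.55, -2.65 to -0.63), a receptor for oxysterols that positions helper cells. Over all genes compared 10.5% were lower, so that the naive list lay near this share. Lef1 (-0.10, -0.56 to 0.35), Tcf7 (0.12, -0.31 to 0.52), Ccr7 (0.55, -0.07 to 1.14) and Ms4a4b (0.07, -0.15 to 0.29) had intervals that include 0, and Il7r was lower by less than 2-fold (-0.55, -0.89 to -0.23).

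Some of the largest differences were also found in the other cell classes of the libraries. H2-T23, which encodes the nonclassical class I molecule Qa-1, was at 299 (258 to 345) CPM in ERBB2i and 39.5 (14.5 to 85.9) CPM in combination, a ratio of -2.92 (-4.39 to -1.77), and stood at -2.35 in CD8 T barcodes, -1.87 in tumor barcodes and -2.54 in B cell barcodes. Serinc3, a membrane protein, had ratios of -2.33, -1.46, -1.84 and -1.88 in the same order. The heat shock genes Hspa1a, with 247 and 3 UMIs (-4.29, -6.57 to -2.72), and Hspa1b, with 105 and 2 UMIs (-3.64, -6.70 to -1.75), were lower too, as in CD8 T barcodes (-2.73 and -3.34) and, for Hspa1a, in B cell barcodes (-3.83). As background, these genes also respond to tissue dissociation, whose part in the difference was not tested. Without candidate doublets Hspa1b stood at -1.69 and H2-T23 at -2.04. Tnfaip3, an inhibitor of NF-κB signaling, stood at -1.89 (-2.87 to -1.05) against -0.93 in CD8 T barcodes. Vps54, a subunit of a vesicle tethering complex, was at -1.90 (-3.57 to -0.62) in CD4 T cells, at -0.98 without candidate doublets, and at -0.11 (-0.49 to 0.27) in CD8 T barcodes. Ptpn7, a tyrosine phosphatase of leukocytes, was higher in CD4 T cells (1.03, 0.48 to 1.56), CD8 T barcodes (1.04) and B cell barcodes (1.09). The other genes with the largest positive ratios, Acadl, Twistnb, Plgrkt and Rnaseh2c, had ratios of 0.90, 0.84, 0.76 and 0.72, short of 2-fold, but 1.62, 1.75, 1.56 and 1.30 without candidate doublets, and tumor barcodes of combination held them at 66.7 to 95.6 CPM against 164 to 197 CPM in CD4 T cells.

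Interferon-stimulated genes stood at different ratios in CD4 T cells and CD8 T barcodes, a difference that was not tested. Of 15 compared in CD4 T cells 5 were at least 2-fold lower in combination and none higher, with a median of -0.14, while the median was 0.67 in CD8 T barcodes. Isg15 had 47 and 5 UMIs (-1.16, -2.84 to 0.17) against 1.26 (0.96 to 1.57) in CD8 T barcodes, and Ifit3, an antiviral protein, 37 and 2 UMIs (-2.13, -5.23 to -0.18) against 0.75 (0.36 to 1.13). Bst2, which tethers virions, had a ratio of -1.66 (-3.15 to -0.47), against 0.50 (0.22 to 0.78). Ly6e (0.03, -0.23 to 0.29), Ly6a (0.24, -0.10 to 0.57) and Psmb8, a subunit of the immunoproteasome (0.10, -0.27 to 0.46), had intervals that include 0. Of the 12 MHC class I genes 3 were lower, with a median of -0.46. H2-K1 stood at -0.23 (-0.41 to -0.05), H2-D1 at -0.70 (-0.88 to -0.53) and B2m at -0.50 (-0.66 to -0.34), and the same genes were at -0.15, -0.40 and -0.34 in CD8 T barcodes. Of 18 activation and immediate early genes 2 were lower, Nr4a2 (-1.40, -2.76 to -0.29) and Tnfaip3, and the median was 0.00. This count lay near the 10.5% of all genes compared that were lower.

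CD4 T cells were next divided by the naive genes. Among cells without Foxp3, 137 in ERBB2i and 33 in combination held Lef1 or Ccr7, and 190 and 44 held neither. The cells with a naive gene were deeper, at medians of 1374 against 1267 UMIs in ERBB2i and 1347 against 1057.5 in combination, and held less of the tumor list, at 2411 against 2695 CPM and at 1989 against 4288 CPM. Of 911 genes with enough UMIs in both libraries, 6 were at least 2-fold higher in cells with a naive gene in both (0.659%) and none was lower in both (0%). They included 2 of the 8 naive-list genes compared, namely Igfbp4 and Tcf7. The calls depended on the genes that define the split: with Lef1 alone, held by 115 and 27 of these cells, only Igfbp4 was higher in both libraries, and Alcam, Eif6 and Zdhhc21 were lower, genes chosen after their values were seen.

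On the log2 scale, Tcf7 stood at 1.05 (0.67 to 1.44) in ERBB2i and 1.89 (1.10 to 2.74) in combination and Klf2 at 0.71 (0.49 to 0.93) in ERBB2i and 1.55 (1.04 to 2.07) in combination. Igfbp4 stood at 1.75 (1.32 to 2.21) in ERBB2i and 1.05 (0.14 to 1.99) in combination. Klf2 did not pass 2-fold in ERBB2i and was not called. Called beside Tcf7 and Igfbp4 were Vps37b, of the endosomal sorting machinery (1.11 and 2.34), Arhgap15, a GTPase-activating protein (1.13 and 1.41), Crlf3 (1.12 and 1.44) and Ezr, which encodes ezrin, a linker of the membrane to actin (1.00 and 1.34). Cd74, the invariant chain of MHC class II, stood at -0.49 (-0.90 to -0.09) in ERBB2i and -1.40 (-2.83 to -0.20) in combination. Satb1 stood at 2.45 (1.90 to 3.05) in ERBB2i and 1.87 (0.65 to 3.20) in combination, where it had fewer UMIs than the minimum. Il7r stood at 0.54 (0.29 to 0.78) in ERBB2i and 0.48 (-0.15 to 1.10) in combination. Of genes of effector cells, Ccl5 stood at -1.46 (-1.57 to -1.35) in ERBB2i and -0.29 (-0.89 to 0.30) in combination, Nkg7 at -0.89 (-1.15 to -0.63) in ERBB2i and -0.66 (-1.80 to 0.38) in combination and S100a6 at -1.28 (-1.76 to -0.82) in ERBB2i and 0.34 (-0.44 to 1.09) in combination. Ctla4 stood at -1.07 (-1.68 to -0.50) in ERBB2i and -0.38 (-2.53 to 1.46) in combination and Icos at -0.37 (-0.99 to 0.24) in ERBB2i and -0.71 (-2.34 to 0.70) in combination, with intervals that include 0 in combination and, for Icos, in ERBB2i. The intervals of Ccl5, Nkg7 and S100a6 also include 0 in combination. Trac, which the split did not use, stood at 0.23 (-0.02 to 0.49) in ERBB2i and 1.39 (0.83 to 1.95) in combination. Whether unequal depth and tumor RNA had a part in these ratios was not tested.

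**Figure D5:**
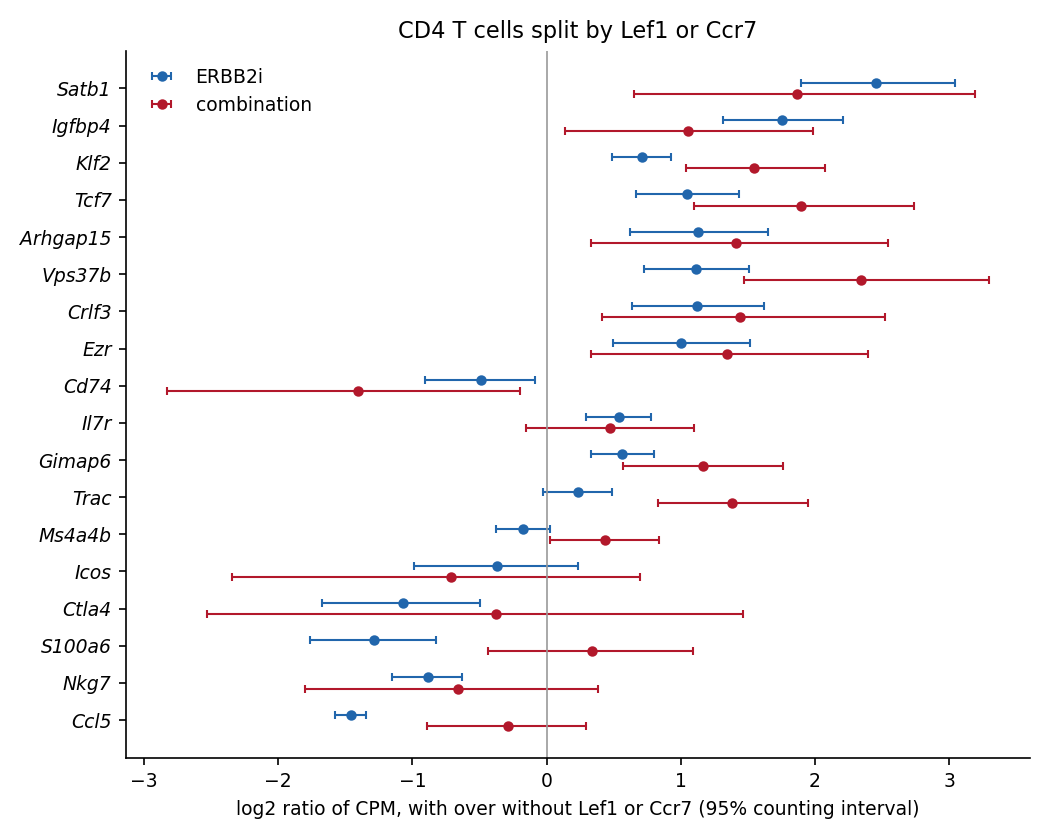
Log2 ratio of CPM in CD4 T cells with over those without a UMI of Lef1 or Ccr7, in ERBB2i (blue) and combination (red), with exact 95% counting intervals. Satb1, Igfbp4, Klf2 and Tcf7 lie above 0 in both libraries, and Ccl5 and Nkg7 below, with intervals that include 0 in combination.

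The same barcode rule was applied to the libraries outside the selection. It gave 16 barcodes in vehicle, 282 in anti-PD-1 and 283 in combination in response. Of the 1880 and 4606 barcodes with CD3 and Cd4 in anti-PD-1 and combination in response, Cd8a removed 1312 and 3517 and Cd8b1 a further 239 and 596. Itm2a, a gene of thymic selection and activated T cells, was held by 49.6% in anti-PD-1 and 56.2% in combination in response, against 5.15% and 5.06% in ERBB2i and combination. Ccr9, a chemokine receptor of thymocytes and gut-homing T cells, was held by 19.9% and 45.6%, against 1 cell in ERBB2i and none in combination. Ccl5 was held by 1.06% and 1.41%, against 35.8% and 20.3%, and Il7r by 23% and 32.2%. Of the 16 cells in vehicle, Ccl5 was held by 31.2% and Il7r by 50%, and Itm2a had no UMI (exact interval up to 99.3 CPM). ERBB2i and combination had barcodes of 24 bases and the other libraries, vehicle among them, of 27. The part of library design in these values was not tested. ERBB2i and combination shared 782 barcodes, none of which was a CD4 T cell in both.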

How the data were processed

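Gene expression was measured by microfluidic scRNA-seq (Singleron SCOPE-chip) in dissociated SCLC lung tumors, 1 library per treatment. The authors deposited filtered UMI counts of 32589 genes per barcode. The submitters' processing notes name Cell Ranger, Scanpy and the mm10 build, and the study's methods name CeleScope, with versions not given in the sources used here. How reads without a unique match were counted is not given there, so that UMIs of close paralogs such as Trbc1 and Trbc2, Hspa1a and Hspa1b, or the class I genes may be split.

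From these counts, UMIs were summed over the selected cells of each library and over CD8 T, B cell (at least 2 UMIs of a B cell list) and tumor barcodes (no Ptprc or CD3 UMI and at least 3 UMIs of a 12-gene tumor list). CPM with exact Poisson 95% intervals, log2 ratios with exact conditional intervals, and shares with exact Clopper-Pearson intervals were computed in Python 3.11.15 with numpy 2.4.6, scipy 1.17.1 and pandas 2.3.3, and TMM factors in R 4.3.3 with edgeR 4.0.16. A sum of 0 was set to a floor of 3 counts to give a ratio, which is not its exact 95% limit. Genes with at least 30 UMIs over 2 sums were compared, and differences of at least 2-fold counted. Shares at 500 UMIs are exact hypergeometric expectations, shallower cells left out. No doublet caller was run; candidate doublets were marked by other cells' genes. Coordinates were taken from RefSeq GRCm38.p6 for 372 of 372 genes looked up. The statistics were tested on simulated Poisson sums, the model that the intervals assume. The simulation held neither free RNA nor counts concentrated in single cells, so that it does not cover these.

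The cells and gene lists were chosen with earlier results of these data known. Genes named outside the lists were the 6 with the largest log2 ratio in each direction between combination and ERBB2i (at least 50 UMIs in one sum, 5 in the other and 2 times the tumor CPM), the 8 in each direction against CD8 T barcodes and between cells with and without a naive gene, and the 10 highest over tumor barcodes with at least 100 UMIs. The 2 times over tumor CPM was required only in the library where the gene was higher. That choice left out sex-linked markers and the genes of mitochondria, ribosomal proteins, hemoglobin, antibodies and variable T cell receptor segments. The naive genes that define the division were reduced after seeing the data, to Lef1 and Ccr7, and certain listed genes are not reported here. A division by Foxp3 was planned, with at least 20 cells a side, and could not be formed. No test between conditions was made, since each has 1 library.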

Additional observations from a re-analysis of the deposited data

Results flagged for a closer look

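The genes of the lists and those named by size, 372 in all, were searched where they had enough UMIs. The other genes of the 5668 compared were not searched, so that no share over all genes stands beside the count below. The lists were chosen with earlier results of these data known, and the count is not read as an excess. For 9 of those searched the log2 ratio of combination to ERBB2i lay below 0 in CD4 T cells and above 0 in CD8 T barcodes. Their counting intervals exclude 0 in both classes. The difference between the classes was not tested, because each group has 1 library. Among them were effector genes. Gzma stood at -2.57 in CD4 T cells and 2.75 in CD8 T barcodes, Gzmb at -1.66 and 1.44, and the galectin Lgals1 at -0.45 and 0.34. The chemokine Xcl1 stood at -2.20 (at the floor of 3 counts, since combination had no UMI) and 1.33. Of the 58 Xcl1 UMIs in ERBB2i 50 came from 1 cell, and without it the level lay below the floor of 19.7 CPM in combination, so that no ratio remained. Without the cell with most UMIs of the gene in each library, Gzma stood at -2.31. Gzmb and Lgals1 lost the negative sign in CD4 T cells without candidate doublets. The interferon-stimulated genes Bst2 (-1.66 and 0.50), Ifit1 (-1.51, at the floor of 3 counts, and 1.03) and Ifit3 (-2.13 and 0.75) showed the same contrast. Without candidate doublets Ifit1 stood at -0.10, again at the floor, since combination had no UMI, so that this value does not show that the contrast was lost. Rgs1, a regulator of chemokine receptor signaling, stood at -0.85 and 0.25. The T cell receptor gene Trbc2 stood at -0.60 and 0.12, while Trbc1 stood at 0.03 in CD4 T cells.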

How the results depend on the processing

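No paired analysis was possible because each group holds 1 library. With at least 2 Cd4 UMIs required, 98 and 16 cells remained in ERBB2i and combination, 0.373% and 0.0588% of passing barcodes and 8.51% and 3.48% of CD4 and CD8 T barcodes. With at least 2 CD3 UMIs the shares were 1.01% and 0.210%, and without Csf1r and Lyz2 in the rule the combination share was 0.419%. At 500 UMIs the shares of cells with Lef1 or Ccr7 were 23.1% and 25.5%. Between cells with and without a naive gene, 1 gene was higher and 3 lower in both libraries with Lef1 alone as the naive gene. Counts of genes differing at least 2-fold between combination and ERBB2i were 88 higher and 182 lower without candidate doublets (of 1543 compared), 375 higher with each cell weighted equally (6.62%, with 13.5% lower), and 1706 higher and 1352 lower with no minimum of UMIs. Against CD8 T barcodes, 193 genes were higher and 68 lower with no minimum. With the minimum these counts were 12 and 43, and those between combination and ERBB2i 241 and 595. In both comparisons the larger count thus changed sides without the minimum, for which shares of all genes were not computed. Without it 1 UMI in each sum sufficed, and such genes counted as higher because the sums differ in total UMIs. The totals were 641699 in ERBB2i and 152034 in combination. With 1 UMI in each class, the log2 ratio over CD8 T barcodes was 1.64 in ERBB2i and 2.51 in combination. These counts are therefore not read as a change of direction. The median of all genes moved by -0.06 under TMM and by -0.08 under median-of-ratios scaling, with 3.48% and 3.32% of genes higher and 11.3% and 12% lower. With library RNA subtracted, 7.67% of 2726 genes were higher and 19.1% lower. Of 552 ratios of 70 named genes under these alternatives, 513 stayed within the counting interval, 30 left it and 9 took the other sign. The latter were Birc5 (0.26 with library RNA subtracted and 1.14 without candidate doublets), Lgals1 (0.20 and 0.56), Stmn1 (2.92 and 0.58), Id2 with library RNA subtracted (-0.038), and Gimap3 (0.11) and Gzmb (0.057) without candidate doublets. A further 5 ratios had no value because a sum was at 0. The cause of these changes was not tested. The cytotoxic median lay between -2.47 and -1.67 over the alternatives. The alternatives for a division by Foxp3 were not run, since under 20 cells held it. Leaving out the richest cell for each gene and the division by Lef1 alone were chosen after seeing the data, as were the alternatives for the share among CD4 and CD8 T barcodes. With 1 library per group no replicate could be left out, and the 152034 UMIs of combination limit what could be seen there. The floor of 3 counts set for a count of 0 is 19.7 CPM there, against 4.68 CPM in ERBB2i.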

Other observations

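Of the 22 T cell identity genes compared none differed at least 2-fold, with a median log2 ratio of -0.15. The kinases Lck (-0.68, -1.12 to -0.27) and Zap70 (-0.01, -0.79 to 0.71) and the adaptor Lat (-0.87, -1.40 to -0.38) of T cell receptor signaling, and Trac (-0.04, -0.33 to 0.25), were among them. Of 6 Gimap GTPases, which support lymphocyte survival, 1 was at least 2-fold lower in combination, with a median of -0.56. Interferon receptor gene Ifnar1 stood at 0.93 (0.04 to 1.76), and the cytokine receptor gene Il6st, which encodes gp130, at -0.12 (-1.54 to 1.09). Of 6 cytokine genes compared, 3 were at least 2-fold lower in combination (Il10, Ifng and Fasl, the last with no UMI in combination), with a median of -0.74. Of 12 cell cycle genes 2 were higher (Ccnb2 at 1.11 (0.78 to 1.44) and Mcm5 at 1.21 (0.26 to 2.11)) and 2 lower (Top2a at -1.06 (-1.48 to -0.66) and Ube2c at -1.09 (-1.50 to -0.70)), and dividing tumor cells also hold these transcripts. Over all genes compared 14.7% differed at least 2-fold in either direction.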
